A study of Mus musculus with 8 samples.

Results

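*Troy* (*Tnfrsf19*) encodes a member of the tumor necrosis factor (TNF) receptor superfamily. It was set beside 7 relatives in mouse epidermis: *Edar*, *Eda2r*, *Tnfrsf1a*, *Tnfrsf1b*, *Tnfrsf12a*, *Tnfrsf21* and *Ngfr*. These 8 genes were taken by symbol, out of 16214 genes listed in the bulk tables and 18836 listed in the single-cell plates. All 8 were listed in both kinds of data. Receptors of this superfamily are membrane proteins that bind ligands of the TNF family or, in the case of NGFR, neurotrophins. Many of them recruit TRAF adaptors and switch on NF-kB or JNK signaling, and some carry a death domain that can pass on a signal for cell death. In skin, EDAR signaling is best known for the formation of hair follicles and other appendages, and TROY is related in sequence to the ectodysplasin receptors.

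All mice were adult C57BL/6 animals carrying the Troy-EGFP-IRES-CreERT2 allele, in which a reporter and an inducible Cre replace the protein-coding region of *Troy*. Bulk mRNA of 2 mice was sequenced from DAPI- viable cells, ITGA6bright EGFP+ cells and ITGA6bright EGFP- cells, where bright ITGA6 (integrin alpha 6) marks cells attached to the basement membrane. Single cells were sorted into plates from 4 Troy-EGFP mice, and from 2 mice that also carried Rosa26-LSL-tdTomato, which the study describes as double homozygous and lineage traced after tamoxifen (traced mice). The plates hold EGFP+ and EGFP- cells of the former and tdTomato+ and tdTomato- cells of the latter, and no gate was assigned to a well. No wild-type animal was analysed here, and EGFP was placed under the *Troy* locus in every mouse, so the EGFP gate selects on *Troy* itself.

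The bulk libraries held 157537 to 453005 counts each. Of 2304 wells, 1109 held at least 1000 transcripts and were kept, 680 from the Troy-EGFP mice and 429 from the traced mice. Troy-EGFP mouse 1 stood apart with 71 kept wells against 129 to 262 in the other Troy-EGFP mice, and 44 of its wells fell in a group led by *Mir1950*, one of the genes by which the study removed necrotic cells. The Troy-EGFP wells were clustered without the genes of the TNF receptor pathway, and 180 of the 680 wells were set aside as T cell-like, Langerhans cell-like or unnamed. The other 500 formed basal interfollicular (163 wells), committed interfollicular (114), lower follicle (153) and upper follicle (70) classes, and traced wells were given a class by transfer from these. Each class carried its own markers in every sum of at least 10 wells. Summed basal markers came to 27450 to 36616 CPM (each count divided by the total of its sum and rescaled to 1e+06 transcripts) in basal wells against 6306 to 18951 in the other 3 classes of the Troy-EGFP mice. *Krt14* was the only one of them among the 10 leading genes of the basal cluster, which *Il1r2* led. In the traced mice, basal markers came to 33807 to 34298 CPM in basal and 20558 to 25190 in lower follicle wells. Lower follicle markers came to 14070 to 17779 CPM in traced basal and 21044 to 29052 in traced lower follicle wells, so these 2 classes shared much of their markers.

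*Troy* lies on chromosome 14, at chr14:60963875-61046490 on the minus strand of GRCm38 (mm10), and its main protein-coding transcript has 10 exons. *Edar* lies at chr10:58600789-58675654, *Eda2r* at chrX:97333840-97377216, *Tnfrsf1b* at chr4:145213463-145246870, *Tnfrsf12a* at chr17:23675445-23677468 and *Ngfr* at chr11:95568818-95587735, all on the minus strand. *Tnfrsf1a* lies at chr6:125349362-125362484 and *Tnfrsf21* at chr17:43016555-43089189, both on the plus strand. Because the *Troy* promoter drove the reporter used for sorting, promoter windows from RefSeq (GRCm38.p6) were searched for ATCAAAG or its reverse complement CTTTGAT, the core letters bound by TCF/LEF factors of Wnt signaling. The motif was in 1225 of 32851 windows (3.73%), each reaching from 250 bases before to 50 after a start. It was in 2 of the 9 windows of the 8 genes, 1 of the 2 *Troy* windows and the *Edar* window. The 250 bases before these starts are shown 5′ to 3′, at chr14:61037988-61038237 and chr10:58675697-58675946, both on the minus strand, with the motif in capitals. The *Troy* window lies before the inner of its 2 starts, within the first intron of the longer protein-coding transcripts, and partly overlaps an exon of another gene on the plus strand. The *Edar* window lies upstream of the gene.
Tnfrsf19: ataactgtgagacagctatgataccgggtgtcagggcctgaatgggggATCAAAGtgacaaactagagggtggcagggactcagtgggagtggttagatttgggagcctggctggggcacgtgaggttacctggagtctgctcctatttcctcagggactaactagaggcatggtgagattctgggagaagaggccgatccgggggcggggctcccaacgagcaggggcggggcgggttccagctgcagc
Edar: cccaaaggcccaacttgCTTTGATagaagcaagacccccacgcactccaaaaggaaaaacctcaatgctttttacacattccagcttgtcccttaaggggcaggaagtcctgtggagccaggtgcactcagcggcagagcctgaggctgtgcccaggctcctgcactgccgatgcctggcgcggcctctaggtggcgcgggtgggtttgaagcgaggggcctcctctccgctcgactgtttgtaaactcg
A match of these letters is a description of the window, and no binding was measured.

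The first question was whether the receptors differed between the sorted bulk populations. *Troy* was higher in EGFP+ than in EGFP- cells, and *Ngfr* leaned the same way without passing the test, while the *Tnfrsf1a* values of all 3 populations overlapped. Levels are CPM of the genes tested, scaled between libraries by TMM (trimmed mean of M values). In mouse 1, *Troy* had 41 counts in EGFP+ cells (110 CPM), 3 in EGFP- cells (22.6 CPM) and 24 in viable cells (85.5 CPM). In mouse 2 it had 16 counts (72.2 CPM), 6 counts (35.0 CPM) and 37 counts (83.4 CPM) in the same order. Both EGFP+ libraries were above both EGFP- libraries, and the viable libraries lay between the 2 EGFP+ values. The means were 91.0 ± 26.7 CPM in EGFP+ cells and 28.8 ± 8.72 CPM in EGFP- cells (SD, n = 2). The log2 difference was 1.65 (SE 0.49, edgeR quasi-likelihood test, adjusted p = 0.0434). Over all genes tested in that comparison, 7.05% passed, and of the 8 receptors 3 had enough counts to be tested and 1 passed. As the gate was set on the *Troy* reporter, this difference checks the sort. It did not pass in DESeq2 (adjusted p = 0.389), with the EGFP+ and EGFP- libraries alone (0.0912), without the EGFP+ library of mouse 1 (0.378) or without the EGFP- library of mouse 1 (0.108). In bulk cells, fewer cells that express a gene and less RNA per cell cannot be told apart.

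**Figure D1:**
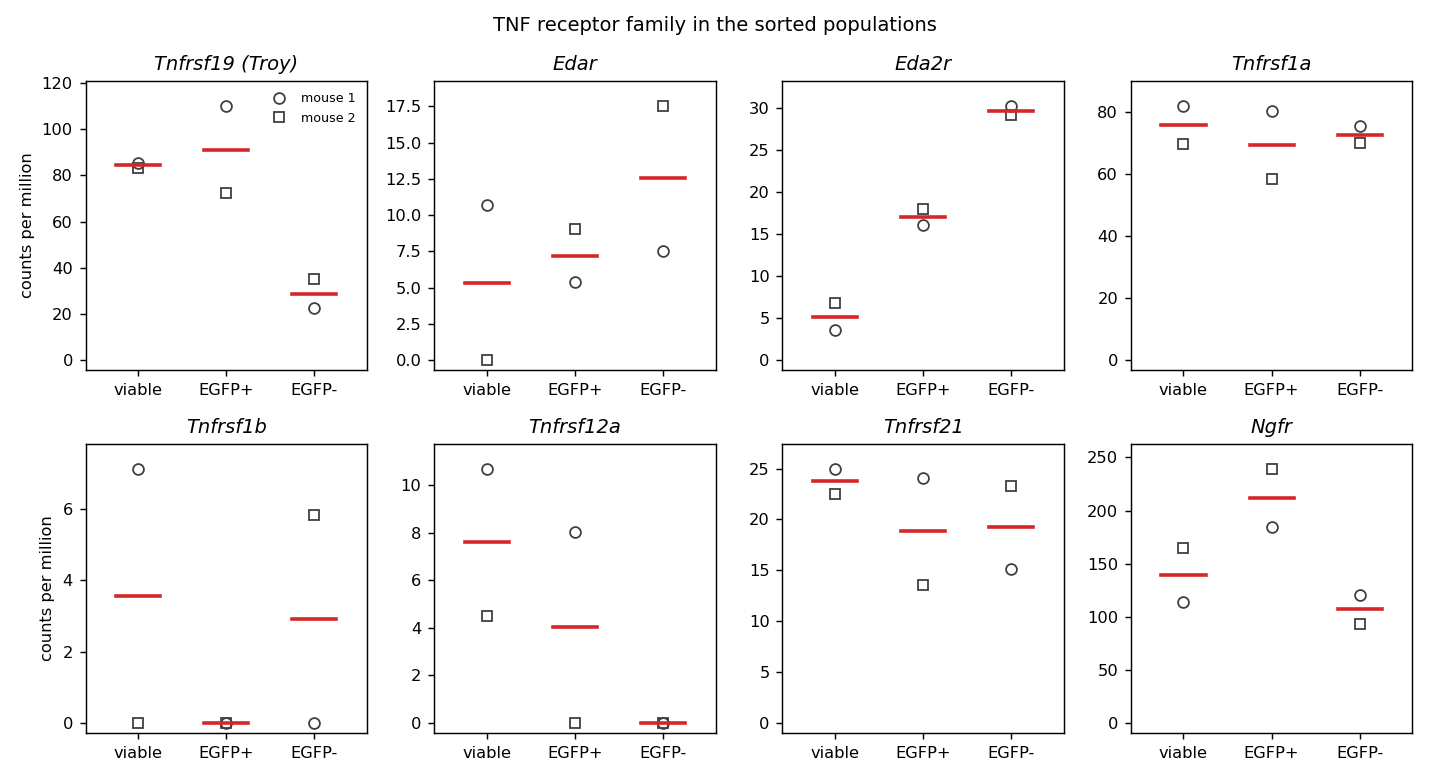
TMM-scaled CPM of the 8 receptors in the bulk libraries of 2 mice (points, one shape per mouse; red bar, mean of the 2), on a separate linear axis for each gene. Troy is lower in both EGFP- libraries (22.6 and 35.0) than in both EGFP+ libraries (110 and 72.2), and Ngfr is highest in the EGFP+ libraries (185 and 239).

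*Ngfr* encodes the neurotrophin receptor p75, a death domain receptor. It had 69 counts (185 CPM) in EGFP+ cells of mouse 1 and 53 (239 CPM) in those of mouse 2. EGFP- cells held 16 counts in each mouse, 121 and 93.3 CPM, and viable cells 32 and 73 counts, 114 and 165 CPM. Both EGFP+ values were above all 4 other libraries. The log2 difference between EGFP+ and EGFP- cells was 0.98 (SE 0.36) and missed the threshold in edgeR (adjusted p = 0.107). It also missed the threshold in DESeq2 (adjusted p = 0.470), and in edgeR with the EGFP+ and EGFP- libraries alone (0.162) or with the mouse as a block (0.0576). Without the EGFP- library of mouse 1, which leaves 1 library in that group, the log2 difference was 1.17.

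*Tnfrsf1a* encodes the main receptor for TNF itself on most cells. Its levels were 80.4 and 58.6 CPM in EGFP+ cells, 75.5 and 70.0 CPM in EGFP- cells and 82.0 and 69.9 CPM in viable cells, so the populations overlapped. The log2 difference between EGFP+ and EGFP- cells was -0.02 (SE 0.41), an error that leaves room for a moderate change in either direction. *Eda2r*, a receptor for the EDA-A2 form of ectodysplasin, had 6 and 4 counts in EGFP+ cells (16.1 and 18.0 CPM), 4 and 5 in EGFP- cells (30.2 and 29.2 CPM) and 1 and 3 in viable cells (3.56 and 6.76 CPM). The populations did not overlap, with EGFP- cells highest, but this rested on 6 counts or fewer per library in 2 mice. With no filter on low counts the log2 difference was -0.63 (SE 0.71) between EGFP+ and EGFP- cells and 2.16 (SE 0.84) between EGFP- and viable cells, and neither passed (edgeR adjusted p = 0.880 and 0.353). *Edar*, the receptor for EDA-A1, had 0 to 3 counts in every library. *Tnfrsf21* (death receptor 6) had 2 to 10 counts, *Tnfrsf12a*, the receptor for TWEAK, 0 to 3, and *Tnfrsf1b*, the second TNF receptor, 0 to 2. These 5 genes were too low to be tested in the main comparison.

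Against viable cells, EGFP- cells held less *Troy*, with a log2 difference of -1.50 (SE 0.49) that missed the threshold in edgeR (adjusted p = 0.136). EGFP+ cells differed from viable cells by 0.15 (SE 0.33) for *Troy* and 0.56 (SE 0.30) for *Ngfr*, and neither passed. Over all genes, 0.473% passed between EGFP+ and viable cells and 1.78% between EGFP- and viable cells. In edgeR 0 of the 3 tested receptors passed in either comparison. At an unadjusted p under 0.05 in edgeR there were 0 and 1 receptors, the latter *Troy*, beside 310 and 630 of all 4653 genes. DESeq2 called none of the 3, but between EGFP- and viable cells it gave no adjusted p for *Troy* and *Tnfrsf1a*. The 3 comparisons share libraries. The median log2 difference of the 3 tested receptors was 0.98 between EGFP+ and EGFP- cells, where that of all genes was -0.04. This median is the value of *Ngfr* itself. It lies between *Tnfrsf1a* (-0.02) and *Troy* (1.65), on whose reporter the gate was set, so it does not describe a shift of the family. With the mouse as a block, 49 genes passed between EGFP+ and viable cells instead of 22, and 163 between EGFP- and viable cells instead of 83.

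The EGFP- populations also carried more immune RNA. The summed level of 6 listed T cell markers was 163 to 310 CPM in EGFP- cells and 4.51 to 8.04 CPM in EGFP+ cells. The 7 Langerhans cell markers summed to 1102 to 1397 CPM in EGFP- cells and 94.7 to 153 CPM in EGFP+ cells. *Cd3g*, *Cd7*, *Cd207* and *Csf1r* were at 0 in both EGFP+ libraries, but *Cd7* was also at 0 in EGFP- cells of mouse 2 and *Csf1r* in those of mouse 1. *Cd3d* (0 and 1 counts in EGFP+, 7 and 0 in EGFP- cells) and *Mfge8* (2 and 0, 1 and 0) did not follow the sums in every mouse. Upper follicle markers were also higher in EGFP- cells, at 4181 to 7791 CPM against 769 to 911 CPM in EGFP+ cells. Lower follicle markers were 9006 to 10414 CPM in EGFP+ and 13468 to 15283 CPM in EGFP- cells. *Mir1950* and *Kcnq1ot1* together were 8057 to 8610 CPM in EGFP+, 13257 to 18752 in EGFP- and 8051 to 20520 CPM in viable cells. Basal markers were 26894 to 27843 CPM in EGFP+ and 15204 to 16811 CPM in EGFP- cells, committed markers 4005 to 4100 and 1324 to 1948 CPM, and fibroblast markers 0 to 4.51 and 40.8 to 75.5 CPM. The part of these cells and of RNA quality in the receptor differences was not tested.

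Of the lists of adaptors and kinases and of NF-kB genes, 1 gene each passed between EGFP+ and EGFP- cells, each out of 9 tested. Of all genes, 7.05% passed. Of 28 adaptors and kinases, 9 were tested and 1 rose in EGFP+ over EGFP- cells. This was *Edaradd*, the adaptor that binds the death domain of EDAR. It had 45 and 19 counts in EGFP+ cells (121 and 85.7 CPM) and 6 and 4 in EGFP- cells (45.3 and 23.3 CPM), with viable cells at 92.6 and 94.7 CPM. Its log2 difference was 1.66 (SE 0.47, edgeR adjusted p = 0.0338). *Edar* itself had 2 counts in each EGFP+ library (5.36 and 9.02 CPM) and 1 and 3 in the EGFP- libraries (7.55 and 17.5 CPM). The *Edaradd* call was lost in DESeq2 (adjusted p = 0.324), with the EGFP+ and EGFP- libraries alone (0.0779), without the EGFP+ library of mouse 1 (0.292) or without the EGFP- library of mouse 2 (0.119). Of 21 NF-kB factors and response genes, 9 were tested and 1 rose, *Fos*. This is an immediate early gene that answers to cell handling too, and it is not an NF-kB factor. *Nfkb1*, *Nfkb2*, *Nfkbia*, *Nfkbib* and *Nfkbiz* were tested and did not pass. *Fos* stood at 742 and 789 CPM in EGFP+ cells, 75.5 and 134 in EGFP- cells and 456 and 487 in viable cells. Its log2 difference was 2.83 (SE 0.34, edgeR adjusted p = 2.18e-05) between EGFP+ and EGFP- cells and -2.13 (SE 0.34, adjusted p = 0.00299) between EGFP- and viable cells. Of 20 other TNF receptors 2 were tested, and of 22 ligands 1, and 0 passed in any bulk comparison by edgeR or DESeq2, nor at an unadjusted p under 0.05. The median log2 difference between EGFP+ and EGFP- cells was -0.05 for the adaptors and kinases and -0.09 for the NF-kB list.

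The next question was in which classes of single cells the receptors were found. The mean *Troy* level was highest in basal wells, followed by committed, upper follicle and lower follicle wells. Of the 3 comparisons with basal wells, that with lower follicle wells passed the main test, which did not pair the classes by mouse. That with upper follicle wells also passed with the mouse as a block. Levels here are CPM of the transcripts of all wells summed per mouse and class, scaled by TMM. Sums under 10 wells were left out, which removed Troy-EGFP mouse 1 and left 3 mice for each class. Basal *Troy* was 148, 105 and 134 CPM in mice 2, 3 and 4, on 15, 17 and 28 transcripts. Committed wells held 46.1, 64.7 and 96.0 CPM, in the same order of mice. Basal and committed values did not overlap. Lower follicle wells held 0, 20.5 and 17.7 CPM, on 5 transcripts in all, and upper follicle wells 0, 31.1 and 54.4 on 8. Every basal value was above every follicle value.

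The means were 129 ± 21.9 in basal, 68.9 ± 25.2 in committed, 28.5 ± 27.3 in upper follicle and 12.8 ± 11.1 CPM in lower follicle wells (SD, n = 3). *Troy* was higher in basal than in lower follicle wells by a log2 difference of 3.14 (SE 0.80, edgeR adjusted p = 0.0310), where 6.89% of all genes passed. That call did not hold without Troy-EGFP mouse 3 (log2 difference 3.54, adjusted p = 0.356), and without mouse 4 *Troy* was too low to be tested. The plates were sorted on the *Troy* reporter. In the study, EGFP+ basal layer cells fell in the interfollicular clusters, and EGFP- ones were enriched in the lower follicle cluster. The *Troy* difference between these classes is therefore not independent of the sort. Basal wells differed from upper follicle wells by 1.95 (SE 0.76), which missed the threshold (adjusted p = 0.195), where 5.25% of all genes passed. It passed once the mouse entered the fit as a block, since the classes of an animal are paired (1.96, edgeR adjusted p = 0.0268). The difference from committed wells was 0.82 (SE 0.67, adjusted p = 0.744), where 3.81% of all genes passed. With that block 357, 483 and 481 genes passed against committed, lower follicle and upper follicle wells, instead of 114, 206 and 157. In the order basal, committed, upper follicle, lower follicle, committed and upper follicle values overlapped across mice, as did upper and lower follicle values. Within each mouse, committed wells were above upper follicle wells (46.1 and 0, 64.7 and 31.1, 96.0 and 54.4 CPM in mice 2, 3 and 4). No test of those pairs of classes was run. *Mir1950* and *Kcnq1ot1*, 2 genes by which the study removed necrotic cells, together made up 10450 to 30629 CPM in basal and 25643 to 40032 in lower follicle sums. The part of such cells in the *Troy* difference was not tested.

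**Figure D2:**
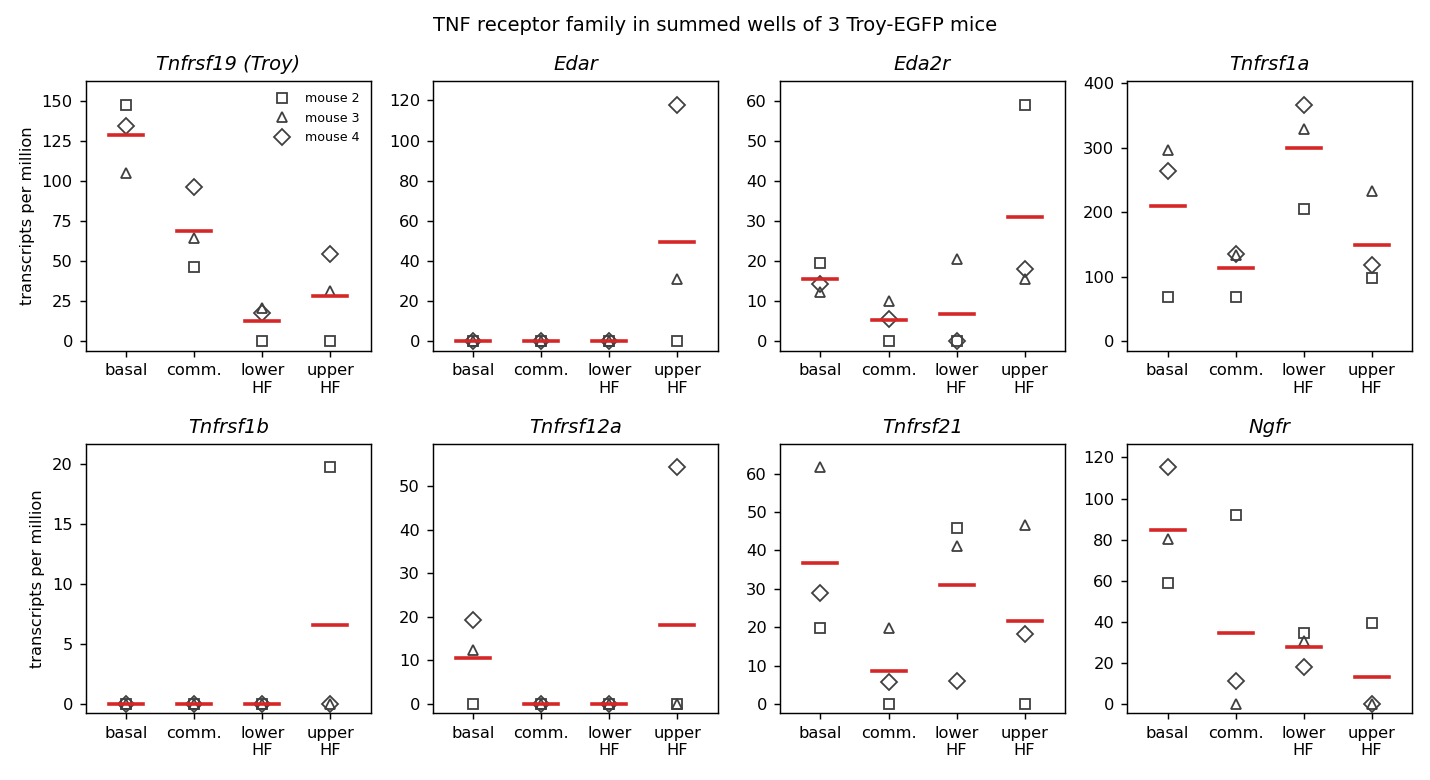
TMM-scaled CPM of the 8 receptors in basal, committed (comm.), lower and upper hair follicle (HF) wells, summed per Troy-EGFP mouse (points, one shape per mouse; red bar, mean of 3), with a separate linear axis for each gene. Troy runs from 105 to 148 in basal sums and 0 to 20.5 in lower follicle sums, Ngfr has its highest mean in basal sums, and Edar is above 0 only in upper follicle sums.

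Among the ectodysplasin receptors, *Edar* was seen in upper follicle wells and *Eda2r* in all 4 classes. *Edar* was found at 0 transcripts in all basal, committed and lower follicle sums of the Troy-EGFP mice, and at 0, 2 and 13 transcripts (0, 31.1 and 118 CPM) in the upper follicle sums of mice 2, 3 and 4. These 15 transcripts came from 6 of 70 upper follicle wells, and 6 of them from a single well of mouse 4. The count of 0 in 163 basal wells leaves an exact binomial 95% interval that reaches 2.24% of wells with a transcript, for counting error only, and does not limit the share of cells that express the gene. *Edar* was too low to be tested in the main comparison. With no filter on low counts the log2 difference between basal and upper follicle wells was -5.71 (SE 1.59, edgeR adjusted p = 0.0235), a value that depends on the prior count since basal sums were at 0. DESeq2 gave -5.36 (SE 3.14) with an unadjusted p of 0.0876. The traced mice gave 3 *Edar* transcripts in 1 of 97 upper follicle wells and 1 in a basal well. A further 2 *Edar* transcripts lay in a well of Troy-EGFP mouse 1 that was set aside without a name. *Eda2r* had 7 transcripts in basal, 3 in committed, 2 in lower follicle and 6 in upper follicle sums, with means of 15.5 ± 3.79, 5.20 ± 4.99, 6.85 ± 11.9 and 30.9 ± 24.5 CPM. Committed sums were below all basal and upper follicle sums, and the other pairs of classes overlapped.

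The TNF receptors differed in where they were found. *Tnfrsf1a* was measured in every epidermal class and every mouse. Basal sums held 68.9, 296 and 264 CPM in mice 2, 3 and 4, committed sums 69.2, 134 and 136, lower follicle sums 206, 329 and 367, and upper follicle sums 98.6, 233 and 118. Mouse 2 was lowest in all 4 classes. Basal sums overlapped with those of every other class, while all lower follicle sums were above all committed sums, a pair that was not tested. Basal wells differed from committed wells by a log2 value of 0.83 (SE 0.49, edgeR adjusted p = 0.561), from lower follicle wells by -0.50 (SE 0.47, adjusted p = 0.749) and from upper follicle wells by 0.52 (SE 0.51, adjusted p = 0.750). The first of these passed without mouse 2 (1.03, adjusted p = 0.0315). *Tnfrsf1b* was found in none of the basal, committed and lower follicle wells of the Troy-EGFP mice (163, 114 and 153 wells) and in 1 of 70 upper follicle wells. It was in 2 of 148 traced basal wells, on 3 transcripts, in none of the other epidermal wells of the traced mice and in 2 of the 98 unnamed wells set aside.

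*Tnfrsf1b* was also found in T cell-like wells, in 7 of 43 wells of the Troy-EGFP mice (16.3%, exact binomial 95% interval 6.81 to 30.7%) and 10 of 28 wells of the traced mice (35.7%, 18.6 to 55.9%). In the traced mice, mouse 1 held 3 transcripts in 2 of 13 T cell-like wells (111 CPM) and mouse 2 held 11 in 8 of 15 (386 CPM). Langerhans cell-like wells held it in 0 of 39 wells. These shares cover counting error only, since wells of a mouse are not separate animals. *Tnfrsf1a* showed the opposite pattern in T cell-like wells, with a transcript in 2 of 43 and 0 of 28 wells against 25.8 to 46.4% of wells in the epidermal classes. The T cell-like wells were shallower, with medians of 1717 and 1893 transcripts against 2498 to 4481 in epidermal classes.

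Most *Ngfr* transcripts were in basal wells. Basal sums held 59.1, 80.1 and 115 CPM on 43 transcripts, committed sums 92.2, 0 and 11.3 on 6, lower follicle sums 34.3, 30.8 and 17.7 on 9, and upper follicle sums 39.4, 0 and 0 on 2. The committed value of mouse 2 lay within the basal range and rested on 4 transcripts in 15 wells. *Ngfr* did not reach the filter on low counts. Without it, basal wells differed from committed wells by 2.24 (SE 0.83, edgeR adjusted p = 0.286), from lower follicle wells by 1.78 (SE 0.77, 0.414) and from upper follicle wells by 3.21 (SE 1.00, 0.0721). Without mouse 2, *Ngfr* reached the filter and passed against committed (4.00, SE 0.90, edgeR adjusted p = 0.00148) and upper follicle wells (6.89, SE 1.64, 0.00280), but not against lower follicle wells (2.08, SE 0.76, 0.0729). The upper follicle sums were then at 0, so that value depends on the prior count. *Tnfrsf21* had means of 36.7 ± 22.1 in basal, 8.51 ± 10.3 in committed, 30.9 ± 21.8 in lower follicle and 21.6 ± 23.5 CPM in upper follicle wells (SD, n = 3), and *Tnfrsf12a* had 6 transcripts in basal and 6 in upper follicle sums and 0 in the others.

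Per well, a *Troy* transcript was seen in 44 of 163 basal wells (27.0%, exact binomial 95% interval 20.3 to 34.5%) and 28 of 114 committed wells (24.6%, 17.0 to 33.5%). The shares were 2.61% in lower follicle and 7.14% in upper follicle wells, and 1 of 43 T cell-like and 0 of 39 Langerhans cell-like wells held 1. Committed wells were deeper, with a median of 4269 transcripts against 3223 in basal wells. After thinning every well to 1000 transcripts, the shares were 9.25% in basal, 6.94% in committed, 3.10% in upper follicle, 0.444% in lower follicle and 1.37% in T cell-like wells. *Ngfr* was in 19.6% of basal and 1.75% of committed wells, and in 5.69% and 0.868% after thinning. Of the 44 basal wells with *Troy*, 10 also held *Ngfr* and 20 also held *Tnfrsf1a*, out of 32 and 59 basal wells with those genes. A well without a transcript is not a well without expression at this depth.

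**Figure D3:**
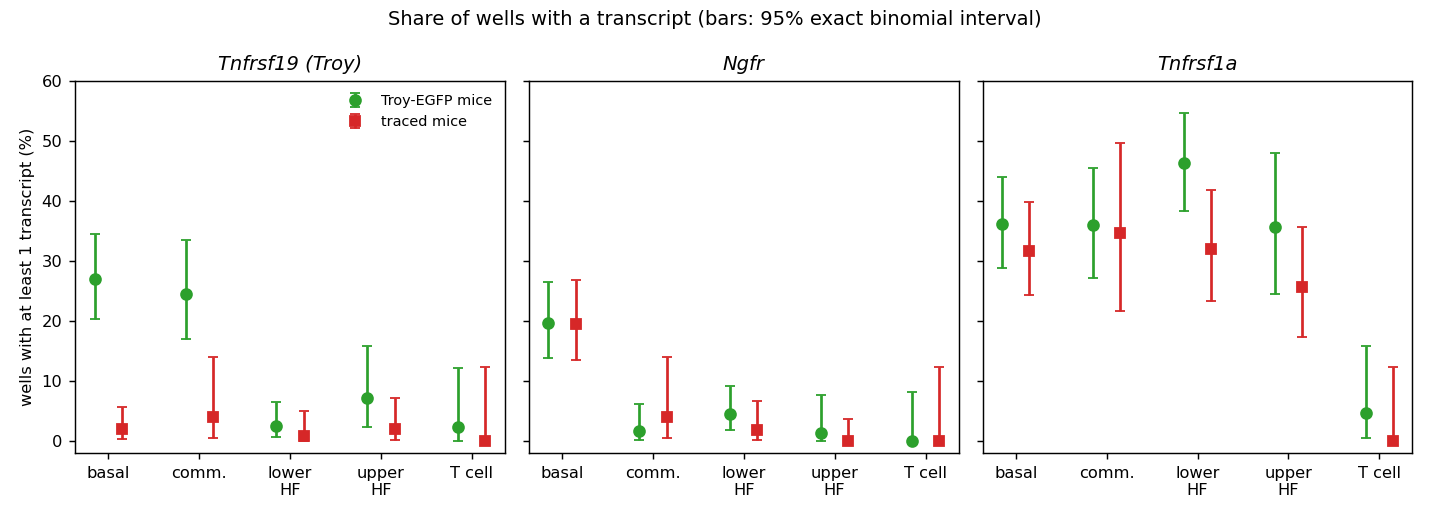
Percentage of wells with at least 1 transcript of Troy, Ngfr or Tnfrsf1a by class (HF, hair follicle; comm., committed), as deposited and not thinned, in Troy-EGFP mice (green circles) and traced mice (red squares), with exact binomial 95% intervals that cover counting error only. Troy is in 27.0% of basal wells of Troy-EGFP mice and 2.03% of those of traced mice, while Ngfr is in 19.6% of basal wells in both.

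Among the pathway lists, edgeR called 3 genes in the class comparisons, where 3.81%, 6.89% and 5.25% of all genes passed against committed, lower follicle and upper follicle wells. *Tnfrsf18* (GITR), 1 of 20 other TNF receptors and the only one tested, was higher in basal than in committed wells by a log2 value of 2.15 (SE 0.49, edgeR adjusted p = 0.0263). Its sums were 88.6, 240 and 245 CPM in basal and 46.1, 34.8 and 50.8 in committed wells, without overlap. This call was lost without mouse 3 (adjusted p = 0.650) or mouse 4 (0.661). DESeq2 called *Tnfrsf18* against committed wells (adjusted p = 0.0293), and 1 gene of the list against lower follicle wells, where edgeR called none. The share of all genes that DESeq2 called in the class comparisons is not given here, so its counts have no background. Of 21 NF-kB factors and response genes 8 were tested, and the factors *Nfkb1* and *Rela* did not pass in any class comparison. *Fos* was higher in basal than in lower follicle wells (173 ± 14.3 against 13.1 ± 4.02 CPM, log2 difference 3.54, SE 0.76, adjusted p = 0.0121), a call lost without mouse 3 (adjusted p = 0.205) or mouse 4 (0.264). *Ier3*, an early response gene linked to cell survival, was lower there (11.4 ± 12.4 against 139 ± 67.8 CPM, log2 difference -3.41, SE 0.86, adjusted p = 0.0308). *Ier3* passed without mouse 2 (adjusted p = 9.56e-05), and it was too low to be tested without mouse 3 or without mouse 4. Of 28 adaptors and kinases 4 were tested. In edgeR 0 passed in any class comparison. There, 1, 1 and 0 had an unadjusted p under 0.05 against committed, lower follicle and upper follicle wells, beside 415, 483 and 490 of all 2990 genes. DESeq2, run without a filter on low counts, called 0, 0 and 1 of the list, again without its share over all genes. *Edaradd* stood at 60.3 ± 12.6 CPM in basal, 45.4 ± 0.688 in committed, 20.5 ± 9.07 in lower follicle and 58.9 ± 37.1 CPM in upper follicle wells (SD, n = 3). None of the 22 ligands could be tested. Of the 8 receptors, 2 were tested, *Troy* and *Tnfrsf1a*. The 2 went opposite ways between basal and lower follicle wells, so their median of 1.32, beside 0.02 over all genes, describes neither.

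The last comparison set basal wells of the traced mice beside those of the Troy-EGFP mice. *Troy* transcripts were scarce in the traced mice, while *Ngfr* and *Tnfrsf1a* were not. Basal sums of the traced mice held 1 and 3 *Troy* transcripts (3.31 and 13.8 CPM) in 83 and 65 wells. Those of the Troy-EGFP mice held 15, 17 and 28 (138, 98.6 and 129 CPM) in 38, 49 and 67 wells. The groups did not overlap. The log2 difference was -3.84 (SE 0.64) and narrowly missed the threshold (edgeR adjusted p = 0.0512), where 0.564% of all genes passed. It passed in DESeq2 (-3.91, adjusted p = 0.00847), with no filter on low counts (-3.78, 5.89e-05), over all epidermal wells (-2.88, 0.0352) and among genes listed in every plate (-3.84, 0.0266), a restriction chosen after the data were seen. Leaving out 1 mouse gave adjusted p values from 4.03e-05 to 0.594.

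**Figure D4:**
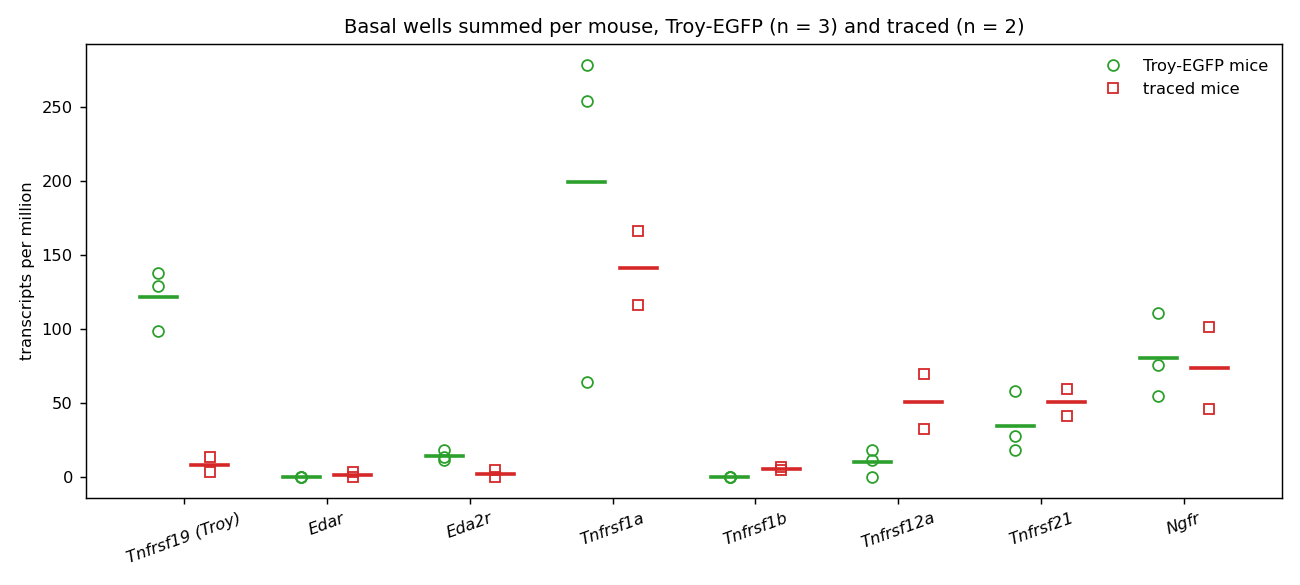
TMM-scaled CPM of the 8 receptors in basal wells summed per mouse, for 3 Troy-EGFP mice (green circles) and 2 traced mice (red squares), with bars at the group means. Troy lies at 98.6 to 138 in Troy-EGFP mice and at 3.31 and 13.8 in traced mice, while the Ngfr values of the groups overlap.

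Over all kept wells *Troy* stood at 26.0, 46.6, 51.8 and 56.1 CPM in the 4 Troy-EGFP plates and at 6.02 and 9.01 in the 2 traced plates. All 4 Troy-EGFP values were above both traced values. The sequencing counts the 3′ end of a transcript, and the allele replaces the coding region. Where the transcript of the replaced allele ends is not known here. Whether a tag in the 3′ untranslated region tells the intact gene from the replaced one was not tested. The copy number of the allele in the Troy-EGFP mice is not given in the sources used here. Copy number of the *Troy* allele, tracing, tamoxifen, the tdTomato allele, plate and experiment cannot be told apart. Sex may differ too, since the traced experiment was done in males and the study used both sexes otherwise. Other values moved with the groups. *Mir1950* and *Kcnq1ot1* together made up 10450 to 30629 CPM in basal sums of Troy-EGFP mice and 653 to 759 in those of traced mice. Summed lower follicle markers were 2131 to 7716 and 14070 to 17779 CPM. The tables of 2 plates (Troy-EGFP mice 3 and 4) list mitochondrial genes and an EGFP row, which held 1 transcript each, and the other 4 do not. The part of these differences in the *Troy* result was not tested.

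Of the relatives, *Ngfr*, *Tnfrsf1a* and *Tnfrsf21* overlapped between the groups. *Ngfr* was 46.4 and 101 CPM in traced and 55.1, 75.4 and 111 in Troy-EGFP basal sums, a log2 difference of -0.19 (SE 0.51). *Tnfrsf1a* was 116 and 166 against 64.3, 278 and 254, a difference of -0.54 (SE 0.56), and it passed without Troy-EGFP mouse 2 (-0.92, edgeR adjusted p = 0.0203). *Tnfrsf21* was 59.6 and 41.5 against 18.4, 58.0 and 27.7, a difference of 0.51 (SE 0.64). *Eda2r* was low in the traced mice, with 0 and 1 transcripts in traced basal sums (0 and 4.61 CPM) and 2, 2 and 3 in those of Troy-EGFP mice (18.4, 11.6 and 13.9 CPM). The groups did not overlap, but the gene was under the filter, and with no filter the difference was -2.46 (SE 1.65, edgeR adjusted p = 0.659). *Tnfrsf12a* was higher in the traced mice, with 21 and 7 transcripts in traced basal sums (69.6 and 32.3 CPM) and 0, 2 and 4 in those of Troy-EGFP mice (0, 11.6 and 18.5 CPM). These values did not overlap, but the gene was under the filter, and with no filter the difference of 2.16 (SE 0.83) missed the threshold (adjusted p = 0.174). Of the 8 receptors 4 were tested and 0 passed in edgeR, while *Troy* had an unadjusted p under 0.05 and was called by DESeq2. The 4 had a median log2 difference of -0.37 against -0.00 over all genes. Of the lists, 3 other TNF receptors, 13 adaptors and kinases and 10 NF-kB genes were tested. In edgeR and DESeq2 0 of them passed, and 0, 1 and 2 had an unadjusted p under 0.05, as did 705 of all 4253 genes.

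The class pattern in the traced mice rested on few *Troy* transcripts, with 4 in basal, 3 in committed, 1 in lower follicle and 4 in upper follicle wells. *Ngfr* kept to basal wells there too, with 36 of its 41 transcripts in the 148 basal wells (64.3 CPM over the pooled wells) and 2, 3 and 0 in committed, lower follicle and upper follicle wells. The difference between the experiments in the basal to lower follicle step was -1.78 for *Troy*, 1.43 for *Ngfr* and 0.43 for *Tnfrsf1a* on the log2 scale, and none passed (edgeR interaction test, adjusted p = 1.00 for each, the same over 9 such tests of 3 receptors).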

How the data were processed

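Sorted cells and single cells were sequenced by CEL-Seq2 and SORT-seq, which count the 3′ ends of transcripts. For the bulk libraries the authors deposited raw read counts per gene, mapped with BWA 0.6.2-r126 per the submitters' processing notes. For the plates the authors deposited estimated counts of transcripts, corrected for molecular barcodes drawn more than once. Values turned back into whole barcodes for barcodes of 6 bases, whereas the labels name shorter ones.

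Bulk counts, and plate values summed per mouse and class and rounded, were tested with edgeR 4.0.16 (TMM, filterByExpr, quasi-likelihood F test, two-sided, Benjamini-Hochberg at 0.05). The SE is the log2 difference divided by the root of F. DESeq2 1.42.0 was an alternative. Classes came from Seurat 5.3.0 with sctransform 0.4.2 in R 4.3.3 (3000 variable genes, 20 components, resolution 0.8), without the 94 genes of the members and pathway lists. Doublets were not called. Sums held at least 10 wells. Populations or classes of 1 mouse are paired by the animal. The deviations of the same mouse correlated by 0.06 to 0.09 in bulk and 0.34 to 0.72 in class sums. The bulk replicates differed by more than sampling noise. How many of all genes have values without overlap between groups was not counted, so statements on overlap only describe the values. The scripts were tested on simulated data.

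The members and the lists (other TNF receptors, ligands, adaptors and kinases, NF-kB genes) were chosen with earlier results of these data known. The text names the 8 members, up to 4 called genes per list and comparison, and the 5 genes most like *Troy*. Gene positions are from GENCODE (GRCm38).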

Additional observations from a re-analysis of the deposited data

How the results depend on the processing

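Depth limited the results, since 5 of the 8 receptors in bulk cells and 6 in the class sums were too low to be tested. *Troy* could not be tested in the class comparisons without Troy-EGFP mouse 4, with no minimum of wells, or in the traced mice alone. Of 257 log2 differences of receptors and called list genes under the alternatives, 222 kept their direction and side of the threshold, 13 lost and 10 gained it, and 12 changed sign. Of 77 counts over all genes, 28 stayed within 1.5 times. The causes were not tested.

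For EGFP+ against EGFP-, EGFP+ against viable and EGFP- against viable cells, edgeR called 328, 22 and 83 genes, and DESeq2 136, 12 and 49. Without the filter on low counts the latter counts were 43 and 133, and with the mouse as a replicate block, which pairs the populations, 49 and 163. The EGFP+ and EGFP- libraries alone gave 151. Leaving out 1 library gave 131 to 751, 7 to 124 and 27 to 464.

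For basal against committed, lower follicle and upper follicle wells (114, 206 and 157 genes), there were 209, 352 and 277 without the filter, 357, 483 and 481 with the mouse as a block, and 326, 683 and 480 in the traced mice alone. Plates 3 and 4 alone, chosen after seeing the data and the same as leaving out mouse 2, gave 460, 507 and 485. Leaving out 1 mouse gave 0 to 460, 11 to 507 and 8 to 485. For traced against Troy-EGFP basal wells (24 genes), DESeq2 gave 81, no filter 404, all epidermal wells 55, genes listed in every plate 52, and leaving out 1 mouse 0 to 1113. An arm left with 1 sample was assumed to vary like the others. The replicate block moved the calls of 1 receptor, *Troy* against upper follicle wells.

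*Tnfrsf1a* changed sign around 0 between EGFP+ and EGFP- cells, with 0.045 in DESeq2, 0.15 without the filter and -0.28 to 0.19 with 1 library left out. With 1 library left out it ran from -0.35 to 0.091 in EGFP+ and from -0.20 to 0.00015 in EGFP- cells against viable cells. *Troy* in EGFP+ against viable cells ran from -0.22 (without the EGFP+ library of mouse 1) to 0.37. *Ngfr* in traced against Troy-EGFP basal wells ran from -0.78 to 0.34.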

Other observations

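Over the 12 sums of the Troy-EGFP mice, the 5 genes whose log2 level (pseudocount 10) followed *Troy* most closely among 2989 other tested genes were *Cux1* (Pearson r = 0.94), *Cpxm2* (0.94), *Btg1* (0.90), *Bmp4* (0.90) and *Ipmk* (0.90). The sums share mice, plates and depth, so these values only describe likeness. *Cpxm2* stood at 125 ± 21.3 CPM in basal, 55.5 ± 12.4 in committed, 7.37 ± 6.43 in lower follicle and 29.8 ± 31.2 in upper follicle wells (SD, n = 3). *Bmp4*, a secreted ligand of BMP signaling, stood at 154 ± 48.1, 94.0 ± 59.1, 12.8 ± 11.1 and 20.3 ± 23.0 in the same order.

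The 98 wells set aside without a name held 9 *Troy* transcripts, with 1, 0, 6 and 2 in mice 1 to 4 (13.8, 0, 79.2 and 62.8 CPM). *Ngfr* was not seen in them. T cell-like wells held 6 *Tnfrsf21* transcripts in 4 of 43 wells of the Troy-EGFP mice, and 4 in 1 of 28 wells of the traced mice.

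In all, 46.2% of the kept wells of the Troy-EGFP mice and 43.6% of those of the traced mice held a transcript of at least 1 of the 8 receptors, and 92 and 49 wells held 2 or more of them.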
